A study of Mus musculus with 45 samples.

Results

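The contractile genes of smooth muscle were followed through 45 bulk RNA-seq libraries of mouse cells in which fibroblasts were turned into skeletal muscle. The set held 9 genes, chosen by name (Acta2, Actg2, Tagln, Cnn1, Smtn, Lmod1, Myh11, Mylk and Myl9), out of 35675 genes with estimated counts. All 9 passed the filter on low counts, among 17325 genes tested. The cells were mouse embryonic fibroblasts (MEFs) of the genotype Tg:Pax7-nGFP/C57BL6;DBA2, which the labels give for every sample, with a nuclear GFP reporter of Pax7 and a doxycycline-inducible MyoD, the transcription factor that imposes the skeletal muscle programme. They were profiled untreated, after 2, 4, 6, 8 and 10 days of doxycycline (here MyoD alone, labelled as myotubes), and after the same days of doxycycline with small molecules that the labels abbreviate as F/R/C (labelled as muscle fibers and progenitor cells). In published protocols for induced myogenic progenitor cells (iMPCs) these are forskolin, RepSox, which inhibits the type I TGF-beta receptor, and an inhibitor of GSK3; the labels do not spell them out. The other 4 groups were bulk iMPCs kept in medium with F/R/C after 13 days of doxycycline and F/R/C (described as established clones that no longer need doxycycline; how many clones is not given), iMPCs sorted for Pax7-GFP, untreated bulk primary myoblasts from skeletal muscle, and myoblasts sorted for Pax7-GFP. Each of the 15 groups had 3 libraries. Nothing says that libraries came from separate embryos or cultures, so p-values measure the spread between these libraries, which may be technical.

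Smooth muscle cells shorten when myosin filaments pull on actin filaments. Contraction is switched on by myosin light chain kinase, which phosphorylates the regulatory light chain of myosin, and is tuned by proteins that lie along the actin filament. Most of these genes are driven by serum response factor (SRF) with its coactivators myocardin and the myocardin-related factors. Fibroblasts switch on part of the same programme when TGF-beta and mechanical load turn them into myofibroblasts, for which Acta2 is the usual marker. Several members are also expressed for a time in immature skeletal muscle cells.

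SRF binds a short element called the CArG box. For orientation, the promoters of 2 members are printed from RefSeq (GRCm38.p6, from 250 bases before to 50 bases after the annotated start, on the gene's strand); 6 of the 9 members had an entry (Acta2, Cnn1, Smtn, Lmod1, Mylk and Myl9). Capitals mark CArG boxes in which at most 1 of the inner A or T bases is replaced by G or C, a form chosen after the sequences were seen. They stand for the marker gene that gave the highest level and for the light chain whose pattern was closest to it.

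Acta2, chr19:34255324-34255623, minus strand: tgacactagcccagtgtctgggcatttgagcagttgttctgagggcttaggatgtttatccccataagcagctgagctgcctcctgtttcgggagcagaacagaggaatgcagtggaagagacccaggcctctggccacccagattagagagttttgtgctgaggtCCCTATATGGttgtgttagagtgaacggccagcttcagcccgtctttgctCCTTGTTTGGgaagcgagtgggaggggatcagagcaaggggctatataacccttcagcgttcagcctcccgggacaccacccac

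Myl9, chr2:156775214-156775513, plus strand: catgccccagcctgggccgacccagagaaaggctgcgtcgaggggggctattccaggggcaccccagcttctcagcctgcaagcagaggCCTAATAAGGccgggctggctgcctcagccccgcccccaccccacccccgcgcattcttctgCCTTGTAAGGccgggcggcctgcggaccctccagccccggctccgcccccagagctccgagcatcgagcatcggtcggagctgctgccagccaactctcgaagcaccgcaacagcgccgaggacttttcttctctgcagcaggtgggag

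The strict CArG box (both strands searched; the element is a palindrome in this form) was found in 1 of the 6 promoters, that of Myl9, 161 bases before the start. Across all promoters of this length in the table, 535 of 32851 (1.63%) held one. With 1 inner G or C allowed, 2 of the 6 matched: Acta2 84 and 34 bases before its start, and Myl9 161 and 99 bases before its start. These starts are those of RefSeq. The GENCODE M21 model of Acta2, used below, extends further upstream, to base 34255590, so both Acta2 boxes lie inside that model. Of all promoters 9.98% matched this looser form. The E-box letters CAGCTG, a form that MyoD can bind, were present in the windows of Acta2 and Lmod1 (2 of 6) and in 16.3% of all promoters. These are matches of letters and not evidence of binding.

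Levels are given as CPM (reads of a gene relative to the library total, scaled by the TMM method), which serve to compare 1 gene between libraries, and as TPM (transcripts relative to all transcripts, corrected for length), which serve to compare genes. Libraries held 15.64 to 36.28 M estimated reads. A gene was called when edgeR's quasi-likelihood test gave a Benjamini-Hochberg adjusted p under 0.05 and the absolute log2 fold change was at least 1. In GRCm38, with GENCODE M21 gene models, the actin genes lie at chr19:34241090-34255590 (Acta2, minus strand) and chr6:83512905-83536265 (Actg2, minus). The genes of actin-associated proteins lie at chr9:45929619-45936058 (Tagln, minus), chr9:22099216-22109630 (Cnn1, plus), chr11:3517523-3540612 (Smtn, minus) and chr1:135324807-135368065 (Lmod1, plus). Those of the motor and its control lie at chr16:14194535-14291372 (Myh11, minus), chr16:34745210-35002420 (Mylk, plus) and chr2:156775420-156781658 (Myl9, plus). At most 1.5% of the 31-base words of their longest transcripts occur in another gene, the highest share being that of Acta2 and Actg2, whose coding parts resemble other actins. In the 6 sorted libraries the deposited transcript lengths exceeded the effective lengths by another amount than in the 39 unsorted ones (median 180.03 against 152.81 bases), so sorting and whatever set this difference cannot be told apart. In bulk cultures, fewer cells of a type and less RNA per cell cannot be told apart either.

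MEFs already expressed the smooth muscle actin programme at high levels. By TPM, Acta2 (smooth muscle alpha-actin) led with 3310 ± 595 (SD, n = 3), followed by Tagln (transgelin, an actin-bundling protein also known as SM22) with 2110 ± 875 and Myl9 (the regulatory myosin light chain) with 665 ± 96.2. Acta2 made up 51.4% of the summed TPM of the 9 genes and Tagln 32.7%. These shares depend on how reads were divided between long and short transcripts. In MEFs a transcript of 826 bases held 58.4% of the TPM of Acta2, and 1 of 369 bases held 24.5% of that of Tagln. Myh11 (smooth muscle myosin heavy chain, the most specific marker of the differentiated cell) stood at 7.74 ± 2.53 TPM and Mylk (myosin light chain kinase) at 3.97 ± 1.86. Actin and its bundling protein were thus abundant in fibroblasts, and the motor and its kinase were the lowest of the 9. Markers of fibroblasts summed to 4060 to 5130 TPM in MEFs, while the endothelial markers summed to 0.69 to 1.52 TPM. The first MEF library stood apart: its Tagln level was 713 CPM against 1570 and 1650, and its 6 markers of differentiated muscle summed to 74.9 TPM against 4.56 and 3.97.

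**Figure D1:**
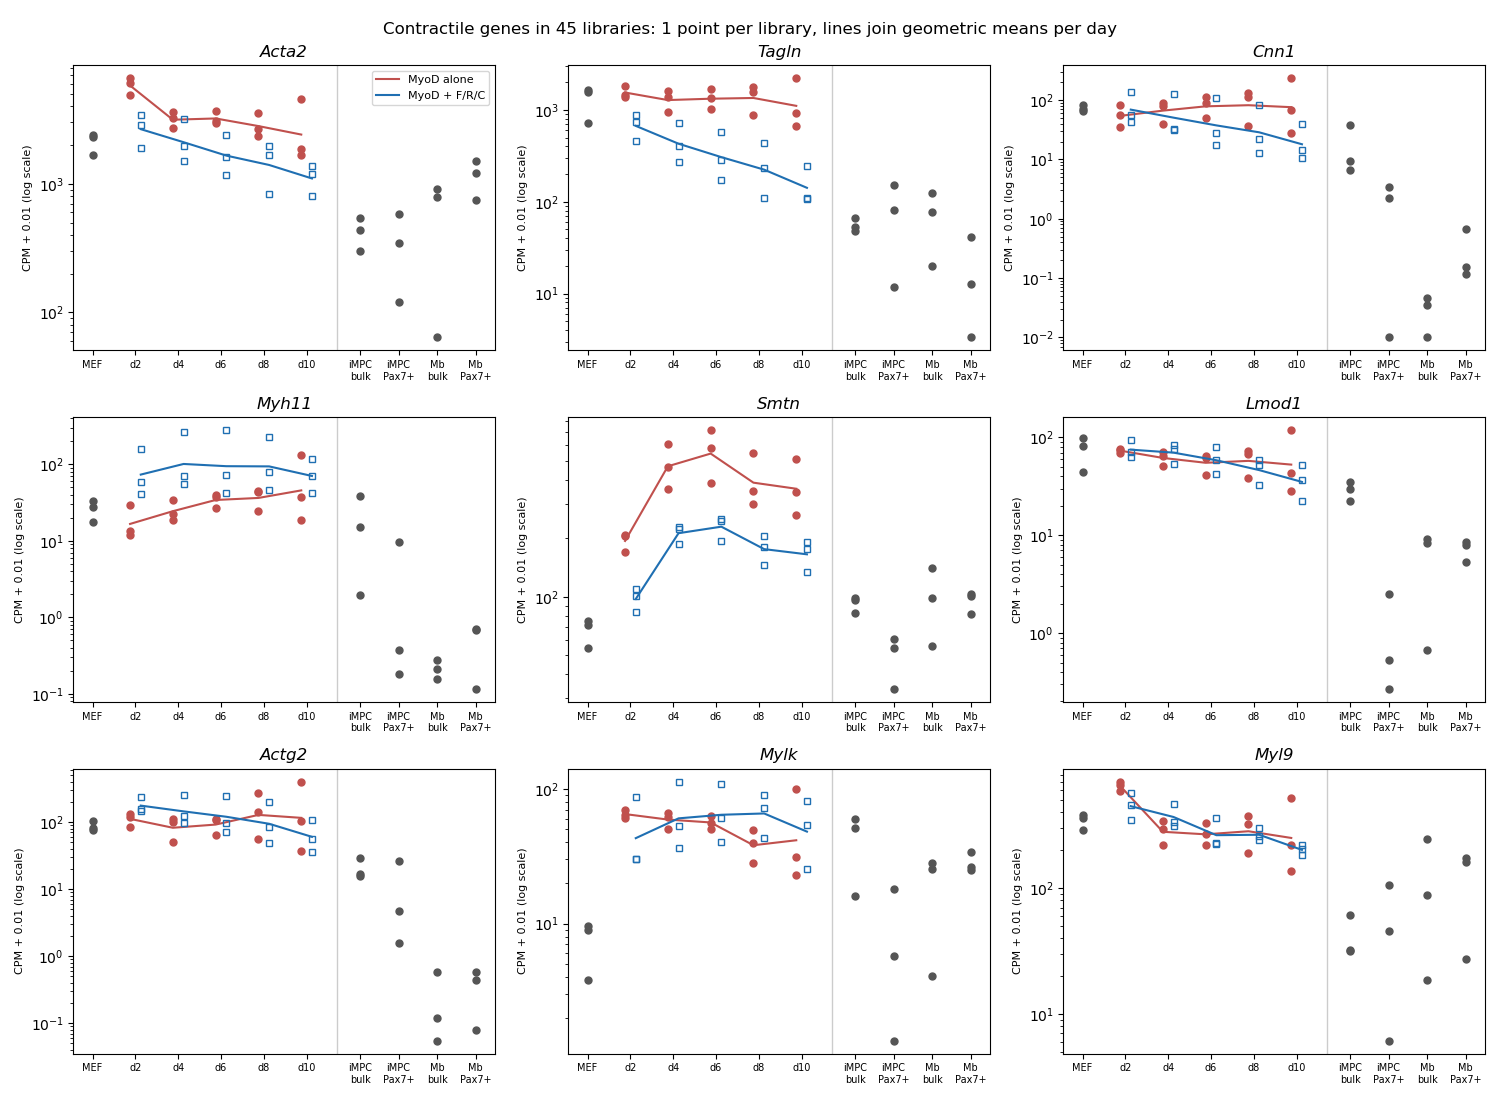
CPM of each of the 9 genes (log axis, 0.01 added) in every library, with untreated MEFs at the left, days 2 to 10 of MyoD alone (filled circles) and MyoD with F/R/C (open squares) in the middle, and the reference cultures at the right (Mb, myoblasts; Pax7+, sorted). Lines join the geometric means; Tagln and Smtn separate the arms on all 5 days, while Lmod1, Mylk and Myl9 mostly overlap.

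Acta2, Smtn and Mylk rose within 2 days of MyoD alone, and the other 6 were not called. Of the 9 members, 3 were higher and 0 lower on day 2 than in MEFs, against 22.4% of all genes called in either direction (12.3% higher and 10.1% lower). The members' median log2 fold change was 0.37, beside 0 over all genes. On day 10, 2 of 9 (Smtn and Mylk) were higher and 0 lower, against 18.9% of all genes (14.3% higher and 4.64% lower), with medians of 0.58 and 0.01.

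Acta2 stood at 1670, 2310 and 2390 CPM in the 3 MEF libraries and at 6020, 6600 and 4910 CPM after 2 days of MyoD. No library of MEFs reached the lowest of day 2, and this was the highest of the 15 groups for Acta2. On the log2 scale this was a rise of 1.46 ± 0.55 (standard error; adjusted p = 0.035), but the call was lost with no filter on low counts (adjusted p = 0.0518) and without any one of 5 of the 6 libraries. Leaving out MEF library 1, 2 or 3 gave 1.30 (adjusted p = 0.124), 1.52 (0.0734) and 1.52 (0.0717), and leaving out library 1 or 2 of day 2 gave 1.40 (0.0766) and 1.34 (0.103). By day 10 Acta2 was 4540, 1850 and 1670 CPM, with a log2 fold change of 0.34 ± 0.54 against MEFs (adjusted p = 0.661).

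Smtn, which encodes smoothelin, an actin-associated protein of contractile smooth muscle, was called on both days. It rose from 74.9, 71.3 and 54.5 CPM in MEFs to 169, 206 and 208 on day 2, and reached 385, 720 and 582 on day 6. On day 10 its libraries held 345, 508 and 264 CPM. Every MyoD library on these days was above every MEF library. The log2 fold changes against MEFs were 1.54 ± 0.28 on day 2 (adjusted p = 7.0e-05) and 2.47 ± 0.29 on day 10 (adjusted p = 5.8e-08).

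Mylk showed the largest log2 fold change of the members on day 2. Its MEF libraries held 8.92, 3.81 and 9.51 CPM, and those of day 2 held 70.0, 61.1 and 63.9 CPM, a log2 fold change of 3.13 ± 0.71 (adjusted p = 8.8e-04). With counts rebuilt from TPM and length, which correct for a shift in transcript use, it was 2.40 (adjusted p = 0.0104). On day 10 the value was 2.79 ± 0.70 (adjusted p = 0.003), and 1.84 (adjusted p = 0.0483) without the first library of MyoD day 10, which held 100.0 CPM against 31.3 and 22.8 in the others.

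The remaining 6 members had no call on either day. Myl9 was 703, 663 and 591 CPM on day 2 against 292, 381 and 360 in MEFs; the libraries do not overlap, but the test gave 0.92 ± 0.64 (adjusted p = 0.267). Tagln was 1810, 1470 and 1390 CPM (log2 fold change 0.25 ± 0.69). Cnn1 (calponin, which slows the actomyosin motor), Lmod1 (leiomodin, which nucleates actin filaments), Actg2 (enteric gamma-actin) and Myh11 had values between -0.52 and 0.37 on day 2 with adjusted p of at least 0.681. Skeletal muscle genes changed on another scale: Acta1, the skeletal alpha-actin, went from a mean of 59.8 CPM in MEFs to 5030, 7650 and 5510 CPM on day 2.

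Adding F/R/C split the contractile genes: Tagln and Smtn were lower and Myh11 was higher than with MyoD alone, while Lmod1, Actg2, Mylk and Myl9 had averaged log2 differences between -0.16 and 0.19. In the average over the 5 days, 1 of the 9 members was higher and 2 were lower, against 22.1% of all genes called (11.6% higher and 10.5% lower), so the share called was near that of all genes. The members' median log2 fold change was -0.16 and that of all genes -0.03. The average treats libraries of different days as independent, although the number of a library went with the level of most members across days. Its p-values may therefore be too small. Acta2 was lower in all 15 comparisons of libraries with the same day and number but did not reach the fold threshold (-0.94 ± 0.24, adjusted p = 0.00111), and Cnn1 missed both thresholds (-0.80 ± 0.37, adjusted p = 0.061).

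Day by day, 0 members were called on day 2, when 4.93% of all genes were (2.13% higher and 2.8% lower). On day 4 it was 1, against 13.2% of all genes (6.58% higher and 6.66% lower), and on day 6 it was 2, against 15.4% (8.23% and 7.14%). On day 8 it was 2, against 18.7% (9.2% and 9.46%), and on day 10 it was 3, against 23.3% (9.91% and 13.4%). All of these members were lower with F/R/C. On day 2, 2 members had an unadjusted p under 0.05 (Myh11 and Smtn), and DESeq2 called 0. With only these 6 libraries in the fit, Acta2, Tagln and Myh11 were called on day 2 (adjusted p from 0.0192 to 0.0347). The change of the F/R/C effect from day 2 to day 10 was called for 0 of the 9 (6.01% of all genes, 2.24% higher and 3.77% lower) by edgeR and for 0 by DESeq2; 1 member, Cnn1, had an unadjusted p under 0.05 (log2 change -2.82 ± 1.19, adjusted p = 0.127). Members' medians were -0.41, 0.19, 0, -0.48 and -1.16 on days 2 to 10, beside 0, -0.01, -0.03, -0.06 and -0.07 over all genes.

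**Figure D2:**
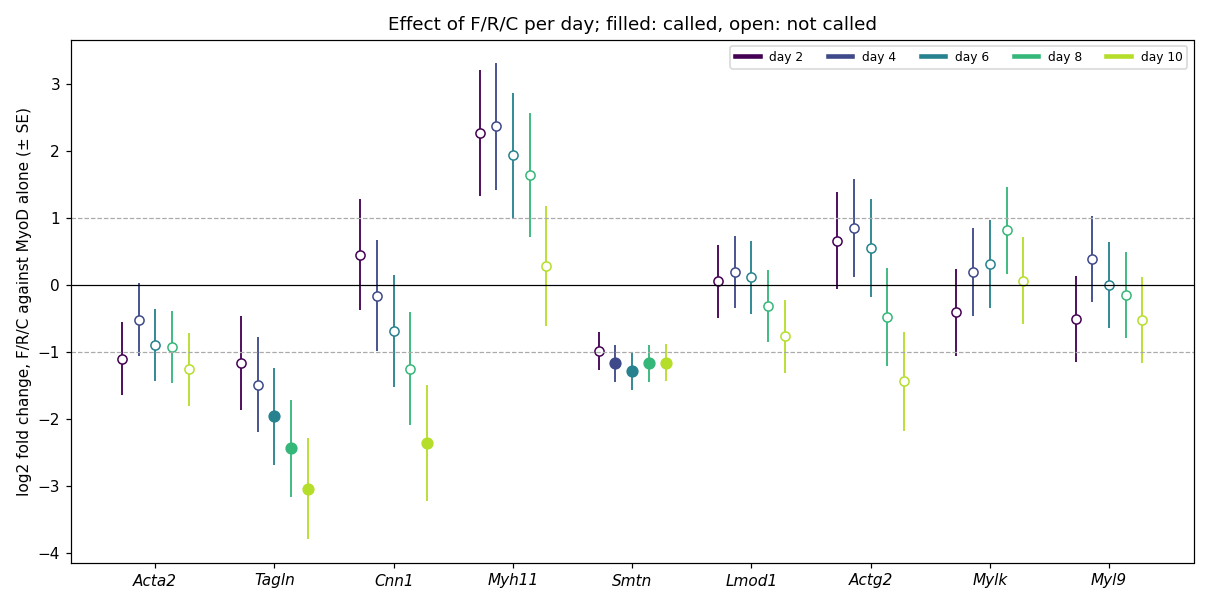
Log2 fold change of F/R/C against MyoD alone (y axis, ± SE) for each of the 9 genes and each of the 5 days (colours), with dashed lines at the threshold of 1. Filled points are called: Smtn from day 4, Tagln from day 6 and Cnn1 on day 10, all below 0, while Myh11 lies above 0 on every day without a call on a single day.

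Tagln had the largest decrease among the members. With MyoD alone its libraries held 1810, 1470 and 1390 CPM on day 2, 1620, 945 and 1370 on day 4, 1670, 1030 and 1350 on day 6, 1760, 888 and 1570 on day 8, and 2210, 667 and 921 on day 10. With F/R/C they held 879, 737 and 464 on day 2, 723, 401 and 271 on day 4, 581, 288 and 171 on day 6, 432, 235 and 110 on day 8, and 244, 106 and 110 on day 10. The arms did not overlap on any of the 5 days, and in MEFs the mean was 1310 CPM. The averaged log2 fold change was -2.02 ± 0.32 (adjusted p = 2.1e-06), a 4.06-fold lower level.

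On single days the Tagln difference was -1.17 ± 0.70 on day 2 and -1.49 ± 0.71 on day 4, neither called (day 4 was called with only these 6 libraries in the fit, -1.48, adjusted p = 0.0235), then -1.96 ± 0.72 on day 6 (adjusted p = 0.0396), -2.44 ± 0.73 on day 8 (0.0101) and -3.04 ± 0.75 on day 10 (0.00165). The day 10 value was -2.24 (adjusted p = 0.023) without the first library of MyoD alone, the highest of that day. The day 6 call was lost with no filter on low counts (0.0628), with length-scaled counts (0.0556) and without any of 5 libraries: -1.72 (adjusted p = 0.124), -2.09 (0.0573) and -1.93 (0.0806) without MyoD library 1, 2 or 3, and -1.81 (0.137) and -1.60 (0.179) without F/R/C library 2 or 3; without F/R/C library 1 it was -2.56 (0.0266). On day 8 it was lost without F/R/C library 2 (-2.29, 0.0536) or 3 (-1.97, 0.0738), and it was -3.03 (0.00925) without F/R/C library 1. No single-library omission ended the call of the averaged difference.

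Smtn was lower by a similar factor on every day. With F/R/C its libraries held 101, 110 and 83 CPM on day 2, 186, 229 and 224 on day 4, 194, 246 and 252 on day 6, 146, 181 and 205 on day 8, and 134, 176 and 191 on day 10. With MyoD alone days 4 and 8 held 360, 611 and 467, and 348, 548 and 301 CPM, and the other days are given above. Every F/R/C library lay below every library of MyoD alone of its day.

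The averaged log2 fold change of Smtn was -1.15 ± 0.12 (adjusted p = 1.8e-09), the smallest p among the members, and single days ran from -0.99 (day 2, adjusted p = 0.0221, short of the fold threshold) to -1.29 (day 6, adjusted p = 0.00103). Because these values lie near the threshold, single libraries moved the call: it was lost on day 4 without MyoD library 2 (-0.94), on day 8 without MyoD library 2 (-0.84) and on day 10 without MyoD library 2 (-0.76). In the opposite sense, day 2 passed without MyoD library 1 (-1.06) or F/R/C library 2 (-1.06).

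Acta2 means went from 5840 to 2690 CPM with MyoD alone and from 2730 to 1130 CPM with F/R/C between days 2 and 10. With F/R/C the libraries held 3430, 2860 and 1910 CPM on day 2, 3160, 1950 and 1510 on day 4, 2400, 1600 and 1180 on day 6, 1970, 1660 and 838 on day 8, and 1380, 1190 and 809 on day 10. The arms did not overlap on 4 of the 5 days, day 4 being the exception. Single-day log2 differences ran from -0.52 on day 4 to -1.26 on day 10 and none was called in the fit of all groups. In the average, Acta2 passed the fold threshold only without F/R/C day 6 library 1 (-1, adjusted p = 8.5e-04), or when no minimum fold change was asked.

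Cnn1 differed mainly on day 10 and in a way that rested on few libraries. With MyoD alone day 10 held 233, 28 and 67.1 CPM, and with F/R/C 39.1, 10.5 and 14.2 CPM. The arms overlap: the first F/R/C library lies above the second library of MyoD alone. The log2 fold change was -2.36 ± 0.87 (adjusted p = 0.029). It was -2.24 (0.0521) with no filter on low counts and -2.31 (0.0865) with only the compared groups in the fit. It was -1.02 (adjusted p = 0.391) without MyoD library 1, -1.92 (0.145) without F/R/C library 2, -1.99 (0.118) without F/R/C library 3, and -3.15 (0.0204) without F/R/C library 1. On day 2 the value was 0.45 ± 0.83. In the average it would have been called without F/R/C library 1 of day 6 (-1.04, adjusted p = 0.0161) or of day 8 (-1.04, adjusted p = 0.0161).

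Myh11, the motor itself, moved opposite to Tagln and Smtn. With MyoD alone its libraries held 29.3, 13.4 and 11.8 CPM on day 2, 34.7, 19 and 22.2 on day 4, 38, 26.9 and 39.4 on day 6, 45.6, 24.6 and 43.2 on day 8, and 133, 19 and 37.9 on day 10. With F/R/C they held 161, 59.7 and 41.5 on day 2, 262, 70.8 and 56.1 on day 4, 282, 72.4 and 41.7 on day 6, 229, 79.7 and 45.8 on day 8, and 118, 42.3 and 70.5 on day 10. F/R/C libraries were all higher on days 2, 4, 6 and 8, although by as little as 45.8 against 45.6 CPM on day 8, and the arms overlapped on day 10.

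The averaged log2 fold change of Myh11 was 1.69 ± 0.41 (adjusted p = 6.4e-04), with 14 of 15 comparisons of the same day and number higher. Single days gave 2.26, 2.36, 1.93, 1.64 and 0.28 with standard errors of 0.89 to 0.94, and none was called; on day 4 DESeq2 called it (2.38, adjusted p = 0.0389), as did the fit with only these 6 libraries (2.37, adjusted p = 0.0249). The size differed with the library number: the mean log2 ratio was 2.08 between the libraries numbered 1, 1.67 between those numbered 2 and 0.84 between those numbered 3. In a fit without all the time-course libraries numbered 1, chosen after seeing the data, it was 1.3 (adjusted p = 0.0236). The same fit gave -2.17 (adjusted p = 1.2e-04) for Tagln, -1.13 (2.4e-06) for Smtn, and -1.24 (0.0103) for Cnn1, which was then called. On single days it lost Tagln on day 6 (-2.3, adjusted p = 0.101), and Cnn1 (-1.89, 0.129) and Smtn (-0.97, 0.0428) on day 10.

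The number of a library went with the level of most members. Among the 10 groups of the time course, the library numbered 1 was the highest of its group in 10 groups for Tagln and Cnn1, in 9 for Acta2, Myh11, Mylk and Myl9, and in 7 for Lmod1 and Actg2. Smtn was the exception, with the library numbered 1 highest in 0 groups and lowest in 7. On day 10 of MyoD alone the differentiated muscle markers summed to 8150, 16200 and 6150 TPM, highest in the library numbered 2. What the numbers stand for is not given in the labels, and its part in these levels was not tested.

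Markers of other cell types moved in the same comparison as Myh11. Of the 8 pericyte markers, 3 were higher with F/R/C in the average (Kcnj8, Notch3 and Anpep) and 1 was lower (Cspg4); their summed level on day 10 was 169 to 215 TPM with F/R/C and 116 to 417 TPM with MyoD alone. Kcnj8, a potassium channel subunit of pericytes and vascular smooth muscle, had at most 3 reads in each of the 15 libraries of MyoD alone and 8.19, 3.94 and 9.15 CPM with F/R/C on day 10, a mean at least 54.3-fold higher than the mean floor of 3 reads per library. The lowest of these F/R/C libraries was at least 26.5-fold above the highest floor of MyoD alone on that day. Notch3 had a log2 fold change of 1.94 ± 0.23, Anpep 1.65 ± 0.33 and Cspg4 -3.05 ± 0.29. Against MEFs on day 10 the pericyte list had 3 higher, Kcnj8, Abcc9 (7.17 ± 0.96) and Notch3 (1.97 ± 0.51), and 1 lower, Cspg4 (-1.91 ± 0.63). In the average over days the list's median was 0.8, and 0.79 with Kcnj8 at its lowest bound. Of the 6 fibroblast markers, Lum (5.5 ± 0.72), Dcn (3.38 ± 0.62) and Pdgfra (1.41 ± 0.46) were higher and 0 were lower, with a median of 0.81; the list summed to 1570 to 2830 TPM with F/R/C on day 2 against 1130 to 1500 with MyoD alone, and to 329 to 1510 against 584 to 3400 on day 10. Against MEFs on day 10, 3 fibroblast markers were lower and 0 higher. Of 5 endothelial markers tested, 3 were lower with F/R/C in the average (Emcn, Cdh5 and Kdr) and 0 higher, with a median of -1.31; the list summed to at most 9.21 TPM in any library. The part of such cells in the Myh11 difference was not tested.

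For Lmod1, Actg2, Mylk and Myl9 the arms overlapped on most days. Lmod1 ran from 22.6 to 94 CPM over the 15 F/R/C libraries and from 28.6 to 119 with MyoD alone, and 8 of 15 same-number comparisons were higher. Actg2 was higher with F/R/C in all libraries of day 2 (233, 148 and 158 against 121, 85.7 and 134 CPM; log2 fold change 0.66 ± 0.73, adjusted p = 0.652) and had a value of -1.44 ± 0.74 on day 10 (adjusted p = 0.12). Mylk and Myl9 had averaged values of 0.19 ± 0.29 and -0.16 ± 0.29. On single days their standard errors were 0.64 to 0.65.

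For Mylk and Smtn, 2 transcripts each are described apart (transcript values are the authors' TPM, described without a test). Mylk-201, the full-length form of 7824 bases, was 1.42, 0.579 and 1.7 TPM in MEFs, 12.9, 11.1 and 12.2 on day 2 of MyoD alone, and 11.6, 4 and 4.32 with F/R/C. Mylk-203, of 1620 bases, covers only the 3′ end of the gene (chr16:34994807-35001363); telokin, a kinase-related protein of smooth muscle without kinase activity, is known to be made from that end, although the annotation does not name this transcript so. It was 4.91, 1.54 and 0 TPM on day 2 of MyoD alone and 40.1, 10.5 and 11.3 with F/R/C.

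Mylk-203 was higher with F/R/C in 14 of 15 same-number comparisons and did not overlap on 2 of the 5 days, whereas Mylk-201 was higher in 7 and lower in 8. The library numbered 1 was the highest in all 10 groups for Mylk-203, and the exception on day 10 was the first library of MyoD alone with 38.5 TPM (17.4 TPM with F/R/C), which also had the highest Myh11 of its arm. In bulk iMPCs Mylk-203 held 1.91, 0.777 and 5.69 TPM, and in the 9 libraries of sorted iMPCs and of both kinds of myoblasts at most 0.246 TPM. Reads shared between overlapping transcripts of 1 gene are divided by the estimation, so these levels are less certain than gene sums.

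**Figure D3:**
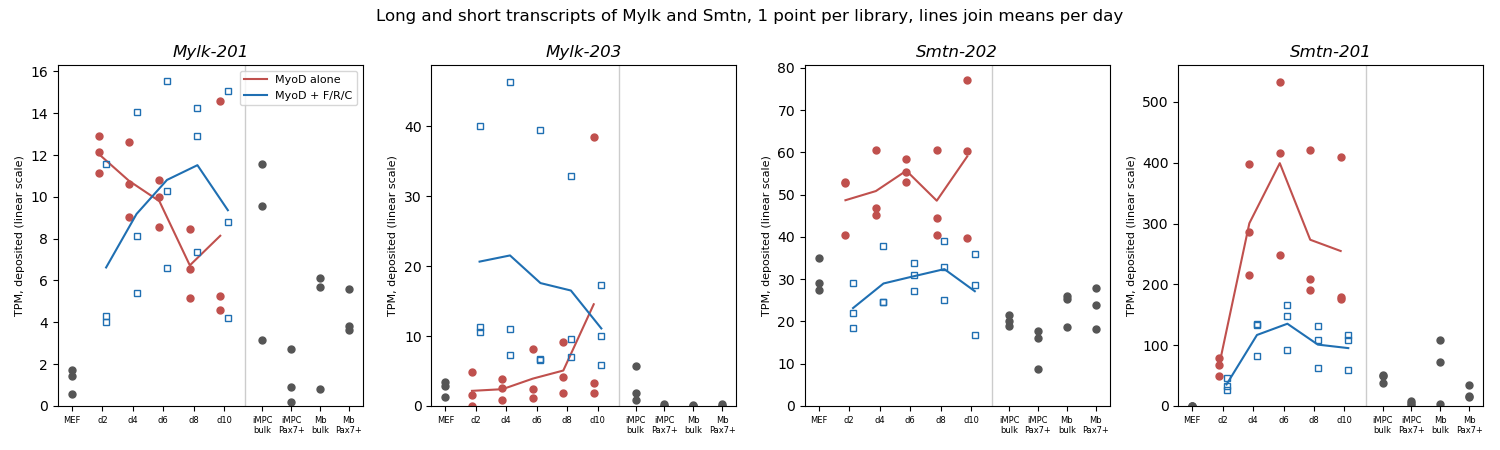
Deposited TPM (linear axis from 0) of the long (Mylk-201, Smtn-202) and short (Mylk-203, Smtn-201) transcripts in every library, with groups and symbols as in the plot of gene levels. Smtn-201 is under 1 TPM in MEFs and reaches 534 TPM with MyoD alone on day 6, and on days 2 to 8 Mylk-203 is highest in the F/R/C library numbered 1, while on day 10 it is highest in the first library of MyoD alone (38.5 TPM).

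Smtn-201, a short form of 1747 bases that starts inside the gene (chr11:3517523-3527937), accounted for most of the rise of Smtn. It was 0.412, 0.442 and 0.422 TPM in MEFs, 49.8, 78.7 and 66.9 on day 2 and 248, 534 and 417 on day 6 of MyoD alone. With F/R/C day 6 held 92.5, 148 and 165 TPM. The long form Smtn-202 (3335 bases) was 34.9, 27.4 and 29.1 TPM in MEFs, 55.4, 58.5 and 53.1 on day 6 of MyoD alone, and 31, 33.8 and 27.3 with F/R/C. Smoothelin is known to have a short and a long protein; the annotation does not label these transcripts by them. Both forms were lower with F/R/C on all 5 days without overlap, in 15 of 15 same-number comparisons. In bulk myoblasts Smtn-201 was 109, 72.7 and 3.76 TPM, the low library being the third, whose muscle markers summed to 750.0 TPM against 13600 and 18700 in the others.

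Set against the starting fibroblasts, Tagln was called lower and Smtn and Mylk higher after 10 days of MyoD with F/R/C. Of the 9 members, 2 were higher and 1 was lower, against 34.8% of all genes called (19% higher and 15.8% lower). The share called was thus near that of all genes. The medians were -0.77 and 0.08. Tagln was -3.09 ± 0.75 (adjusted p = 8.5e-04), Smtn 1.32 ± 0.28 (2.0e-04) and Mylk 2.85 ± 0.71 (0.00106). Cnn1 had -1.79 ± 0.85 (adjusted p = 0.0773), which became -2.57 (0.0368) without F/R/C library 1. With only these groups in the fit, Myh11 was called higher (1.62, adjusted p = 0.0143) and Cnn1 lower (-1.72, adjusted p = 0.0215). On day 2 Mylk was the single member called (20.4% of all genes, 11.5% higher and 8.93% lower), at 2.73 ± 0.7 (adjusted p = 0.00308), and at 2.04 (0.0288) without F/R/C library 1. The fit with only these groups also called Myh11 (1.75, adjusted p = 0.0362) and Actg2 (1.03, adjusted p = 0.0105) higher on day 2. These comparisons share the MEF libraries with those of MyoD alone.

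In established bulk iMPCs most of the contractile genes were far below their fibroblast level. Of the 9, 6 were lower and 1 was higher than in MEFs, against 35.5% of all genes called (16.2% lower and 19.2% higher), with medians of -2.02 and 0.08. Tagln was 48.5, 53.4 and 66.4 CPM against a MEF mean of 1310, a log2 fold change of -4.55 ± 0.8 (adjusted p = 1.8e-05). Myl9 was 32.5, 31.8 and 61.1 CPM (-3.04 ± 0.69, adjusted p = 4.2e-04), and Acta2 300, 545 and 438 CPM (-2.31 ± 0.56, adjusted p = 8.5e-04). All 3 genes were below every MEF library in every iMPC library. Of the 6 fibroblast markers 3 were lower and 0 higher (median -2), with sums of 939 to 1780 TPM against 4060 to 5130 in MEFs, and of the 16 TGF-beta and myofibroblast genes 9 were lower and 4 higher. The markers of differentiated muscle were higher, 6 of 6 (median 9.11). The part of these in the members' levels was not tested.

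The kinase gene Mylk was the exception, at 59.9, 16.1 and 51.5 CPM in bulk iMPCs (2.52 ± 0.7 against MEFs, adjusted p = 0.00285; 1.85, adjusted p = 0.028, with length-scaled counts). Smtn (98.1, 82.7 and 95.6 CPM; called higher with length-scaled counts, 1.15, adjusted p = 0.00485) and Myh11 (15, 1.94 and 38.1 CPM) were not called. The decreases of 3 members were less firm. Actg2 was -2.1 ± 0.76 (adjusted p = 0.02), and -1.96 (0.0501), -1.96 (0.0718) and -1.87 (0.0782) without MEF library 3, iMPC library 1 or iMPC library 2. Lmod1 was -1.36 ± 0.55 (adjusted p = 0.0361) and ran from -1.11 to -1.46 (adjusted p from 0.0617 to 0.128) without MEF library 2 or 3 or any iMPC library. With no filter on low counts the adjusted p of Lmod1 was 0.0702. Cnn1 was -2.02 ± 0.86 (adjusted p = 0.0461; 0.0802 with no filter), -1.48 (0.142) with length-scaled counts, -3.13 (0.0109) without iMPC library 2, and -1.55 to -2.02 (adjusted p from 0.0705 to 0.192) without iMPC library 1 or 3 or any MEF library.

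Between bulk iMPCs and MyoD with F/R/C on day 10, 1 member was called in the fit of all groups. It was Myl9 (-2.27 ± 0.67, adjusted p = 0.0147), against 9.57% of all genes (3.33% higher and 6.24% lower). The members' median was -1.4 beside 0.03. With only these groups in the fit, Acta2 (-1.45, adjusted p = 0.0304), Tagln (-1.51, 0.0415) and Actg2 (-1.75, 0.048) were also called lower in iMPCs. The Myl9 call was lost without iMPC library 1 (-2.12, adjusted p = 0.0666) or 2 (-2.14, adjusted p = 0.0643). Without other single libraries Acta2 was called (-1.65, adjusted p = 0.0481, without F/R/C library 3; main value -1.4 ± 0.55; DESeq2 also called it), and so was Myh11 (-3.23, adjusted p = 0.0439, without iMPC library 3; main value -2.07 ± 0.93).

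The clearest contrast among the muscle cultures lay between bulk iMPCs and primary myoblasts. In bulk myoblasts Cnn1 had 0, 1 and 1 reads, Myh11 had 6, 8 and 4, and Actg2 had 1, 23 and 3, while in bulk iMPCs these genes held up to 38.2, 38.1 and 29.3 CPM. Of the 9 members, 4 were higher in iMPCs and 0 were lower, against 19.6% of all genes called (10.9% higher and 8.7% lower), with medians of 1.15 and 0.01. Cnn1 was 9.47, 38.2 and 6.56 CPM in iMPCs, a mean at least 170.0-fold higher than the mean floor of 3 reads per library in myoblasts. Much of that mean came from iMPC library 2, which also had the highest sum of fibroblast markers (1780 TPM against 1040 and 939), and the lowest iMPC library was at least 48.8-fold above the highest floor. Myh11 had a log2 fold change of 6.47 ± 1.29 (adjusted p = 2.8e-04), Actg2 of 6.17 ± 1.02 (2.9e-05) and Lmod1 of 2.25 ± 0.57 (0.00291; 0.134 with only these groups in the fit). Without the iMPC library 3, Myh11 was 5.36 (0.00258), and without myoblast library 2, Actg2 was 7.93 (9.2e-05).

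Acta2, Tagln, Smtn and Myl9, by contrast, were at levels in myoblasts that were not distinguished from iMPCs. Acta2 was 910, 789 and 64 CPM in bulk myoblasts, Tagln 125, 76.8 and 20.1, Smtn 141, 98.1 and 55.9, and Myl9 244, 88.9 and 18.5. The third library was the lowest for all 4, and Myl9 was called lower in iMPCs without it (-1.99, adjusted p = 0.0199; -1.49 ± 0.65 with it). In the same comparison the fibroblast markers were higher in iMPCs, all 6 of 6, and summed to 939 to 1780 TPM against 208 to 271 TPM in myoblasts. Their part in the levels of Cnn1, Myh11 and Actg2 was not tested.

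Several members were lower in Pax7-sorted than in bulk iMPCs, and none was called between sorted and bulk myoblasts; the difference between these 2 comparisons was not tested. Sorted against bulk iMPCs, 4 members were lower and 0 higher, against 30.3% of all genes called (9.88% higher and 20.5% lower), with medians of -0.91 and -0.13. Lmod1 was 0.52, 2.51 and 0.258 CPM in sorted against 29.7, 22.3 and 34.9 CPM in bulk iMPCs, a log2 fold change of -4.68 ± 0.67 (adjusted p = 1.5e-06; -6.12, adjusted p = 1.2e-06, without sorted library 2). Mylk was 18.1, 5.74 and 1.34 CPM (-2.33 ± 0.69, adjusted p = 0.0058; -3.56, adjusted p = 6.2e-04, without sorted library 1).

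Cnn1 was 3.47, 2.22 and 0 CPM in sorted iMPCs (-3.22 ± 0.94 against bulk, adjusted p = 0.00548), and this was -2 (0.0877) without bulk library 2, -3.95 (0.00692) without sorted library 1 and -2.63 (0.035) without sorted library 3. Myh11 was 0.173, 9.78 and 0.362 CPM, so 1 of the 3 sorted libraries held nearly all of it. Its difference from bulk was -2.39 ± 0.97 (adjusted p = 0.0412), -6.05 (5.5e-04) without that library, and not called without sorted library 1 (-1.83, 0.147) or 3 (-1.82, 0.17) or bulk library 1 (-2.51, 0.0565) or 3 (-1.2, 0.343). With only these groups in the fit, the calls of Cnn1, Myh11 and Mylk were lost (adjusted p from 0.0887 to 0.272). Without sorted library 2 Actg2 was called lower as well (-2.68, adjusted p = 0.0116; -0.91 ± 0.75 with it).

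Smtn was short of the fold threshold between sorted and bulk iMPCs (-0.89 ± 0.28, adjusted p = 0.00861), and was called without sorted library 3 (-1.01, 0.00951) and with length-scaled counts (-1.79, adjusted p = 9.5e-05). In the same comparison 5 of 6 fibroblast markers were lower (median -3.89), and the list summed to 137 to 496 TPM in sorted against 939 to 1780 TPM in bulk iMPCs. Of the 6 markers of differentiated muscle 5 were lower (median -4.43), with sums of 509 to 972 against 11900 to 15500 TPM, and of the 8 pericyte markers 4 were lower and 1 higher. The part of these cells in the lower levels of the members was not tested.

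For sorted against bulk myoblasts 0 of 9 members were called by edgeR (6.23% of all genes, 2.2% higher and 4.03% lower), 1 had an unadjusted p under 0.05 (Tagln, -1.95 ± 0.72, adjusted p = 0.072), and DESeq2 called 2 (Tagln, -1.93, and Cnn1, 3.86, at 4, 19 and 2 reads in sorted and 0, 1 and 1 reads in bulk myoblasts). Tagln was 12.8, 41.2 and 3.32 CPM in sorted myoblasts and was called without bulk library 3 (-2.4, adjusted p = 0.0341) or sorted library 2 (-3.14, adjusted p = 0.0249). Acta2 stood at 746, 1210 and 1500 CPM in sorted myoblasts. Members' and all genes' medians were 0.31 and -0.02.

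Between the 2 sorted populations the set was divided evenly. Of the 9 members, 3 were higher in Pax7-positive iMPCs (Tagln, Myh11 and Actg2) and 3 were lower (Acta2, Lmod1 and Mylk), against 30% of all genes called (12.4% higher and 17.6% lower), with medians of -0.94 and -0.07. Actg2 was 1.56, 26.5 and 4.65 CPM in iMPCs and 0.0706, 0.565 and 0.435 in myoblasts, without overlap (4.95 ± 1, adjusted p = 1.4e-04; 3.17, adjusted p = 0.00885, without iMPC library 2; 5.64, adjusted p = 8.0e-04, without myoblast library 2). Lmod1 ran the other way, with 5.37, 8.01 and 8.53 CPM in myoblasts (-2.69 ± 0.64, adjusted p = 8.1e-04; -4.14, adjusted p = 8.3e-05, without iMPC library 2).

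With only these 6 libraries in the fit, Acta2, Tagln, Myh11 and Mylk lost their calls (adjusted p from 0.0556 to 0.202). The second sorted iMPC library decided several of these values. Myh11 was called at 2.86 ± 1.17 (adjusted p = 0.0431) but was -0.82 (0.702) without it, and the call was also lost without myoblast library 1, 2 or 3 (2.34, 3.3 and 3.15, with adjusted p of 0.148, 0.0698 and 0.073). Tagln, at 11.9, 151 and 81.2 CPM in sorted iMPCs, gave 2.08 ± 0.72 (adjusted p = 0.0178), 1.33 (0.157) without iMPC library 2, 1.86 (0.0704) without myoblast library 1, 1.59 (0.0976) without myoblast library 3 and 3.36 (0.00179) without myoblast library 2. Acta2 was 121, 579 and 345 CPM (-1.73 ± 0.55, adjusted p = 0.0102) and lost its call without iMPC library 1 (-1.31, 0.0702).

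Mylk in sorted iMPCs was below the 34, 24.8 and 26.1 CPM of sorted myoblasts, at -1.75 ± 0.68 (adjusted p = 0.0333). That value was -2.97 (0.00257) without iMPC library 1, -1.51 (0.118) and -1.22 (0.163) without iMPC library 2 or 3, -1.59 (0.0797) without myoblast library 1, and -1.63 (0.0609) with length-scaled counts. Smtn missed the fold threshold (-0.94 ± 0.28, adjusted p = 0.00608) and passed it without iMPC library 3 (-1.07) or myoblast library 1 (-1.03), and with length-scaled counts (-1.25, adjusted p = 0.00314). Myl9 was called only without iMPC library 2 (-2.18, adjusted p = 0.017) or myoblast library 3 (-1.67, adjusted p = 0.0427). A short transcript of this gene was under 0.01 TPM in all 39 unsorted libraries and above 2 TPM in all 6 sorted ones, which had the other difference between the deposited lengths. Markers of differentiated muscle were lower in sorted iMPCs, 6 of 6 (median -2.46), and summed to 509 to 972 TPM against 2440 to 8380 TPM in sorted myoblasts. Of the 8 pericyte markers 5 were higher and 2 lower, and of the 6 fibroblast markers 2 were higher and 0 lower (median 3.31; sums of 137 to 496 against 62.6 to 210 TPM). Their part in the members' differences was not tested.

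Ordered by mean CPM, each member had its own sequence of groups. Acta2 and Myl9 were highest on day 2 of MyoD alone (5840 and 652 CPM), Smtn on day 6 of MyoD alone (562), Myh11 and Mylk on day 6 with F/R/C (132 and 69.8), and Cnn1 and Actg2 on day 10 of MyoD alone (109 and 181). For the last 4 genes the library numbered 1 was the highest of the group: it held 282 CPM of Myh11 against 72.4 and 41.7, 109 of Mylk against 40 and 60.5, 233 of Cnn1 against 28 and 67.1, and 401 of Actg2 against 37 and 104. Neighbouring groups in these orders mostly overlapped: of 14 neighbouring pairs, the libraries were apart in 0 for Mylk, in 1 for Acta2, Tagln, Myh11 and Lmod1, in 2 for Cnn1, Smtn and Actg2, and in 3 for Myl9. The highest group mean was 9.42 times the lowest for Mylk, 11.3 times for Smtn, 15.6 times for Myl9 and 16.8 times for Acta2. It was 69.1 times for Lmod1 and 81.7 times for Tagln. The ratio was larger still for Myh11, Actg2 and Cnn1, whose lowest group was bulk myoblasts, where they had few reads.

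Across the 15 group means of log2 CPM, Actg2 was most alike to Cnn1 (Pearson r = 0.97) and to Myh11 (0.95), Acta2 to Myl9 (0.93), while Tagln and Mylk were least alike (0.34). Over all genes tested, the patterns closest to Acta2 were those of Pcdhgb4 (0.965), Pcdhga4 (0.956) and Zfp469 (0.953). For Myh11 they were Fam43a (0.974), Sncg (0.968) and Hhipl1 (0.966), and for Mylk they were Cbfa2t3 (0.977), C430049B03Rik (0.977) and Ppfia4 (0.953). These are descriptions over 15 points that share libraries and cell states.

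Of SRF and its coactivators, 0 of 4 were called in the average of F/R/C against MyoD alone by edgeR; the log2 fold changes were 0.24 for Srf, -0.02 for Myocd, -0.66 for Mrtfa and -0.47 for Mrtfb. On single days 0 were called on days 2, 4 and 6, and 1 was called lower on day 8 and 1 on day 10. Against MEFs, Myocd (myocardin) was higher with F/R/C on day 10 (3.27 ± 0.68, adjusted p = 1.6e-04), though at only 1.27, 3.02 and 3.35 CPM, and Mrtfa was lower (-1.09 ± 0.25, adjusted p = 4.2e-04). Myocd was also higher on day 2 of MyoD alone (2.69 ± 0.68, adjusted p = 0.00242; 1.7, 1.49 and 1.89 CPM).

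Of 4 factors known to oppose myocardin and SRF, Klf4 (-1.4 ± 0.17, adjusted p = 2.3e-08) and Elk3 (-1.74 ± 0.21, adjusted p = 2.0e-08) were lower with F/R/C in the average, Elk1 (-0.49) and Foxo4 (0.9) were not called, and the median was -0.94. On single days 0 of the 4 were called on day 2, and 2 were called lower on each later day. On days 8 and 10, 1 was called higher. On day 10 against MEFs Klf4 was -2.06 ± 0.39, Elk3 -3.46 ± 0.51 and Foxo4 3.01 ± 0.34, all called. Among the other actins, Actg1 was lower with F/R/C in the average (-1.17 ± 0.16, adjusted p = 2.3e-07), and Actb (-0.97), Acta1 (-0.07) and Actc1 (0.69) were not called. On single days 0 of these 4 actins were called on day 2, 1 was called lower on day 4, and 2 were called lower on each of days 6, 8 and 10. On day 10 against MEFs the cytoplasmic actins Actb (-1.69 ± 0.34) and Actg1 (-2.17 ± 0.37) were lower, and the striated muscle actins Acta1 (2880, 4040 and 6060 CPM, MEF mean 59.8) and Actc1 (4470, 6200 and 5720 CPM, against 33.6, 0 and 0.127 CPM in MEFs) were higher.

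Other smooth muscle genes went in both directions too. Of 15, 4 were higher with F/R/C in the average, namely Aoc3 (2.2 ± 0.43, a vascular amine oxidase), Ppp1r14a (1.9 ± 0.33, an inhibitor of myosin phosphatase), Itga8 (1.86 ± 0.33, an integrin) and Synpo2 (1.36 ± 0.22). Cald1 (caldesmon, -1.62 ± 0.18) and Fhl2 (-1.61 ± 0.17) were lower, 9 were not called, and the median was -0.06. On day 10 against MEFs 4 were higher and 3 lower, with Synpo2 (4.48 ± 0.57), Npnt (3.88 ± 0.4), Ppp1r14a (3.46 ± 0.78) and Cald1 (-3.08 ± 0.42) having the largest values.

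Among 16 genes of TGF-beta signalling and myofibroblast activation, 9 were lower and 3 higher with F/R/C in the average, with a median of -1.39. Fn1 (fibronectin, -3.69 ± 0.34), Lox (lysyl oxidase, -3.27 ± 0.32) and Ccn2 (connective tissue growth factor, -3.16 ± 0.41) were among those that were lower, and Fap, Tgfbr1 and Cthrc1 were the 3 that were higher. The list summed to 6480 to 14400 TPM with MyoD alone on day 10 and to 641 to 1440 TPM with F/R/C. Relative to MEFs, 10 were lower and 4 higher on day 10, with Fn1 (-4.12 ± 0.78), Thbs1 (-3.99 ± 0.82) and Lox (-3.61 ± 0.72) having the largest values. The part of this list's level in that of the members was not tested.

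Of 10 striated or more widely expressed relatives of the members, 3 were higher and 0 lower with F/R/C, Tagln3 (2.93 ± 0.23), Mylk2 (1.37 ± 0.32) and Smtnl2 (1 ± 0.25), with a median of -0.37. Against MEFs 7 were higher and 2 lower on day 10, led by Lmod2, Smtnl2, Lmod3 and Mylk4, whose means were 76.8, 172, 122 and 215 CPM after MEF means of 0.0879, 0.396, 0.3 and 0.787 CPM. The 6 markers of differentiated skeletal muscle had 0 calls in the average of F/R/C against MyoD alone, with a median of 0.06.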

How the data were processed

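The 45 libraries (RNA from cultures or sorted cells, RNeasy, stranded poly-A libraries, single-end reads on a NovaSeq, per the labels' protocols) were processed by the authors with bcl2fastq 2.19, Trimmomatic 0.36 and kallisto 0.44 on GRCm38.p6, per the submitters' processing notes. Estimated counts and TPM per transcript are used as the authors deposited them, per the file headers; kallisto divides reads shared by transcripts. Here estimated counts were summed per gene by GENCODE M21 (121104 of 121843 transcripts matched), rounded and tested with edgeR 4.0.16 in R 4.3.3: TMM scaling, filterByExpr, 1 coefficient for each of 15 groups, quasi-likelihood tests with 30 residual degrees of freedom and Benjamini-Hochberg adjustment over 17325 genes. Standard errors are the absolute log2 fold change over the square root of F. Libraries held 15.64 to 36.28 M reads, and a count of 0 allows up to 3 reads. The edgeR fit was tried on simulated counts for F/R/C against MyoD alone on day 10 only. Libraries were simulated independently, so an effect shared by libraries of the same number was not covered.

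Alternatives were RLE factors, other filters, length-scaled counts from TPM, only the compared groups, DESeq2 1.42.0, no minimum fold change, a replicate block and leaving out each library. Libraries with the same number deviated together on days 2, 4 and 6 of the time course (lowest correlation 0.35, 0.24 and 0.22), so the numbers pair the arms there, a pairing that comes from the data. The members and gene lists were chosen with earlier results of these data known. All members, coactivators, antagonists and other actins are named; of each other list, up to 4 called genes with the largest absolute log2 fold change in the average over days and up to 4 in F/R/C day 10 against MEFs. Patterns like a member's are named for Acta2, Myh11 and Mylk (the 3 highest correlations). Further genes were named after their values were seen. Results of some genes are not reported here.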

Additional observations from a re-analysis of the deposited data

How the results depend on the processing

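Under the alternatives 238 counts of members called stayed within 1.5 times the main count and 37 did not. With only the compared groups in the fit the count was 3 for F/R/C on day 2 (main 0), 3 on day 4 (main 1), 3 for F/R/C day 2 against MEFs (main 1), 5 for F/R/C day 10 against MEFs (main 3), 4 for bulk iMPCs against F/R/C day 10 (main 1), 2 between the sorted populations (main 6) and 1 for sorted against bulk iMPCs (main 4). DESeq2 gave 2 on day 4, 2 for bulk iMPCs against F/R/C day 10 and 2 for sorted against bulk myoblasts (main 0). With no minimum fold change it was 1 on day 2 and 2 for bulk iMPCs against F/R/C day 10. Day 6 (main 2) had 1 with no filter, 1 with length-scaled counts and 1 with the time course numbers 2 and 3 only, which also gave 1 on day 10 (main 3), and length-scaled counts gave 1 for sorted against bulk myoblasts. The share of all genes called was taken from the main fit only, so counts under the alternatives, including those without 1 library, cannot be set against it. The cause was not tested.

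Leaving out 1 library gave counts of 0 to 1 on days 2 and 4, 1 to 2 on days 6 and 8, 2 to 3 on day 10, 3 to 5 in the average, 0 to 2 for bulk iMPCs against F/R/C day 10, 4 to 6 against MEFs, 4 to 7 between the sorted populations and 0 to 1 for sorted against bulk myoblasts. Myh11 between the sorted populations ranged from -0.82 to 3.42.

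With the replicate block the counts were 0, 1, 2, 2 and 3 on days 2 to 10 and 3 in the average, as without it. Correlations between libraries of the same number were weaker on day 8 (0.08 to 0.23) and day 10 (0.06 to 0.26). Outside the time course the samples are known to share only a number. The block changed the call of Cnn1 for F/R/C day 10 against MEFs (-2.12, adjusted p = 0.0116) and between the sorted populations (2.36, adjusted p = 0.0483), and of Myh11 for sorted against bulk iMPCs (-2.17, adjusted p = 0.056). Depth limits Cnn1, Myh11 and Actg2 in myoblasts, where no library held over 23 reads of any of them.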
